A study of Mus musculus with 12 samples.

Results

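Genes of the cell cycle and of DNA replication were followed in the MC38CEA line, which derives from a mouse colon adenocarcinoma and carries human carcinoembryonic antigen, after editing of *Adam17* and after stimulation with cytokines. The set was a fixed list of 50 gene symbols, matched by name to the table of read counts, and all 50 were found among its 43269 named genes. It was divided by function into 28 genes of the G1 phase and of DNA replication (G1/S genes) and 22 genes of the G2 phase and of mitosis (G2/M genes). All 50 also passed the filter on low counts that left 14673 genes for testing.

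Each of 4 groups was measured in 3 biological replicates, which gave 12 libraries. The groups were both kinds of cells in 2 conditions: *Adam17*-KD cells with IL1β and IFNγ, control cells with IL1β and IFNγ, unstimulated *Adam17*-KD cells and unstimulated control cells. Human recombinant IL1β and mouse recombinant IFNγ were given together for 6 h, each at 10 ng/ml, and unstimulated cells received neither. Both kinds of cells had been electroporated with Cas9 mRNA and then with guide RNAs transcribed in vitro, directed at *Adam17* in *Adam17*-KD cells and at EGFP in control cells, so the controls shared the editing procedure. The genotype labels name a knockdown, while the sample titles use KO and WT. *Adam17* mRNA was still counted in every edited library. Whether the replicates came from separate editing experiments or from repeated cultures of 1 edited population is not stated, and p-values therefore measure only the spread between these libraries. In RNA from whole cultures, fewer cells in a phase of the cycle cannot be told apart from less RNA of a gene per cell.

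As background, the cell cycle is driven by cyclin-dependent kinases, each of which needs a cyclin partner. In G1, D-type cyclins with CDK4 or CDK6 and then cyclin E with CDK2 phosphorylate the retinoblastoma family of pocket proteins, which frees E2F transcription factors to turn on genes for DNA replication. Genes of G2 and mitosis peak later, and many of their promoters hold a cell cycle genes homology region (CHR), a short element bound by the DREAM complex, which represses them in resting cells, and by B-MYB and FOXM1 complexes, which activate them. Mitotic entry is triggered by cyclin B with CDK1 once CDC25 phosphatases have removed its inhibitory phosphates, and exit follows when the anaphase-promoting complex marks cyclin B and securin for destruction. Interferon γ is known to slow the growth of many epithelial and tumour cells.

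The promoters of 6 members are shown here because the results below turn on 4 of them and because the other 2 hold most matches to the searched elements. *Cdk6*, *Ccne1*, *Cdc25b* and *Rpa3* are the members with a called change for which a promoter sequence was at hand, and *Mcm6* and *Top2a*, chosen after the matches were counted, had the most E2F words and the most CHR words. Each sequence is the RefSeq window of 250 bases before to 50 bases after the annotated start, on build GRCm38.p6, 5′ to 3′ on the strand of the gene. Capitals mark matches to the words TTCCCGC, or TTGGCGC, or TTCGCGC, or TTGCCGC (E2F), TTTGAA or TTCGAA (CHR), and CCAAT, the box bound by NF-Y, on either strand. The windows lie at chr5:3343643-3343942 on the plus strand (*Cdk6*), chr7:38107441-38107740 on the minus strand (*Ccne1*), chr2:131186698-131186997 on the plus strand (*Cdc25b*), chr6:8259092-8259391 on the minus strand (*Rpa3*), chr1:128359656-128359955 on the minus strand (*Mcm6*) and chr11:99024140-99024439 on the minus strand (*Top2a*).
Cdk6: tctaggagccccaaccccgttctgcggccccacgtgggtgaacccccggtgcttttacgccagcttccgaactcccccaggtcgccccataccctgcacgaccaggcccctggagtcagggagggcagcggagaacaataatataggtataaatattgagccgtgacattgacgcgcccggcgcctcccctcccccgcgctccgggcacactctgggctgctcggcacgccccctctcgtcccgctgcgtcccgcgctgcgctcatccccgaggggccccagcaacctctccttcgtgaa
Ccne1: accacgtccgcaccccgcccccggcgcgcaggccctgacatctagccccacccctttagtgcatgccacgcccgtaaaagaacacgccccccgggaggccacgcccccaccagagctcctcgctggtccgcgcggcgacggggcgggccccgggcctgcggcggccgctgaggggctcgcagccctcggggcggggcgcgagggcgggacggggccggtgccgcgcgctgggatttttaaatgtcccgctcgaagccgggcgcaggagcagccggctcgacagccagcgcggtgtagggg
Cdc25b: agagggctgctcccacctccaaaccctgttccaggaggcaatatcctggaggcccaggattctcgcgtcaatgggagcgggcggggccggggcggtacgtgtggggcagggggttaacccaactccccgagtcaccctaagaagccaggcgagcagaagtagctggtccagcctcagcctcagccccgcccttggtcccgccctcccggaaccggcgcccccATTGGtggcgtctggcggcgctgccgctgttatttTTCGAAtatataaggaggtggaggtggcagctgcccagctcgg
Rpa3: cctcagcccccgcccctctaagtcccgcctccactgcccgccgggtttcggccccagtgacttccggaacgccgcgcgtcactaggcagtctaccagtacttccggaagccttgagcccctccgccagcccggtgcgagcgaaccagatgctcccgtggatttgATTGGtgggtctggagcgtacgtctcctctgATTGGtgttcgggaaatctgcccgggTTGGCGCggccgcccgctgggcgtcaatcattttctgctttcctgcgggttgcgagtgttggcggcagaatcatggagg
Mcm6: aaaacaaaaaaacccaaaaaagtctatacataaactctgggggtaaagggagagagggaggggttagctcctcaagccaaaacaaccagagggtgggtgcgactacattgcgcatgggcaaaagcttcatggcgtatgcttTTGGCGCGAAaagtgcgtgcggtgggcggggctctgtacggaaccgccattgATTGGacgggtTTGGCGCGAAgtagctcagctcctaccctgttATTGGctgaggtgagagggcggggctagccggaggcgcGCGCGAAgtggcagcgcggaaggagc
Top2a: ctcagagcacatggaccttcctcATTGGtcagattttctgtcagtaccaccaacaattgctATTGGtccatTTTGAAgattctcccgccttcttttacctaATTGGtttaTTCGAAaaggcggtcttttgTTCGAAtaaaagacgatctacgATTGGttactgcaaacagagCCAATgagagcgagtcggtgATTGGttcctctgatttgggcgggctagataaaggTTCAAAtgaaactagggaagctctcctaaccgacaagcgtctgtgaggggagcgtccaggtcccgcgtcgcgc

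No searched word stood in the windows of *Cdk6* and *Ccne1*, which says only that these letters are not in these 300 bases. *Cdc25b* had the CHR word TTCGAA at bases 8 to 13 after the start and a CCAAT box on the opposite strand at bases -28 to -24. In *Rpa3*, the E2F word TTGGCGC was at bases -29 to -23, upstream of which stood 2 CCAAT boxes. *Mcm6* held 5 E2F matches, 4 of which overlapped in pairs because TTGGCGC and TTCGCGC share letters when read on opposite strands. *Top2a* held 4 CHR matches and 6 CCAAT boxes.

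Over the set, 40 of the 50 members matched a RefSeq promoter. Among the G1/S genes, an E2F word was found in 15 of 26 promoters of 23 genes (57.7%), a CHR word in 4 (15.4%) and CCAAT in 18 (69.2%). Among 17 promoters of 17 G2/M genes, 3 held an E2F word (17.6%), 13 a CHR word (76.5%) and 15 CCAAT (88.2%). The shares in all 32851 promoters of the same length were 9.57% for E2F words, 19.2% for CHR words and 37.4% for CCAAT. In these windows the E2F words lay mostly with the G1/S genes and the CHR words mostly with the G2/M genes. A match is a run of letters and not evidence of binding.

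**Figure D1:**
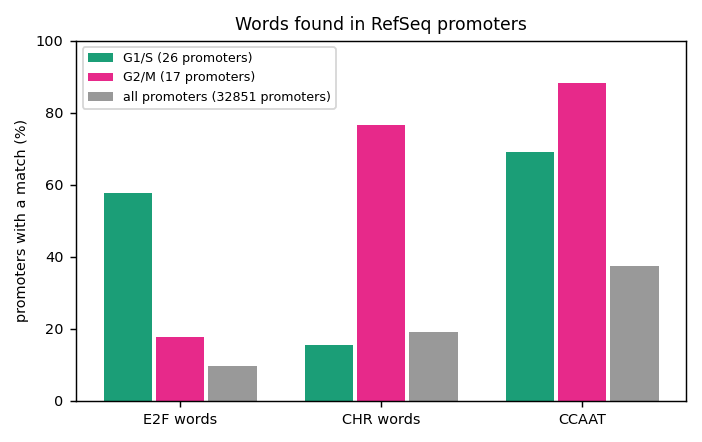
Share of RefSeq promoters (300 bases each) with at least 1 match to an E2F word, a CHR word or CCAAT on either strand, in percent, for G1/S genes (26 promoters), G2/M genes (17 promoters) and all 32851 promoters. E2F words were in 57.7% of G1/S and 17.6% of G2/M promoters, and CHR words in 15.4% and 76.5%.

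Libraries held 13156871 to 25443307 counted reads. Levels are given in CPM, reads of a gene scaled to a common library size, with library sizes adjusted by TMM, the trimmed mean of M values. Members were well covered: the lowest count was 137 (*Ccne2*), the highest was 18312 (*Cdk4*), and the median of the members' mean counts was 2391. *Adam17* itself had 57.1, 59.8 and 62.4 CPM in stimulated *Adam17*-KD cells, against 93.8, 111.2 and 110.3 CPM in stimulated control cells. Without cytokines it had 49.7, 57.3 and 49.7 CPM in *Adam17*-KD cells, against 77.0, 91.8 and 94.4 CPM in control cells. The difference was -0.78 ± 0.08 (SE) on the log2 scale over both conditions (adjusted p = 0.00103, edgeR quasi-likelihood test with Benjamini-Hochberg adjustment). *Adam17* overlaps *Iah1* and *Gm22766*, and strand in counting is not given in the sources used here. Reads of these genes therefore cannot be told apart with certainty. Epithelial markers were near absent: the summed level of 15 genes was 1.47 to 2.42 CPM, *Epcam*, *Cdh1*, *Krt8* and *Krt18* reached at most 0.181 CPM, and *Cldn3* had no count. Of 9 leukocyte markers the sum was 17.05 to 34.8 CPM, mostly *Cd14*, with *Ptprc* at most 0.129 CPM and *Cd3e* at 0. The sum of 9 fibroblast and endothelial markers, mostly *Col1a2*, moved with the groups: 134 to 197 CPM in stimulated *Adam17*-KD cells, 101 to 113 CPM in stimulated control cells, 278 to 327 CPM in unstimulated *Adam17*-KD cells and 182 to 192 CPM in unstimulated control cells. The genes of this list did not all move alike. *Lum*, *Pecam1*, *Cdh5* and *Kdr* reached at most 0.728 CPM. Of the 5 that were tested, 3 were called lower and 1 higher with cytokines, averaged over both kinds of cells. The shares of all genes were 3.82% lower and 9.19% higher. Between *Adam17*-KD and control cells, 2 of the 5 were called higher in the average, beside 1.06% of all genes. In unstimulated cells 1 was called higher, beside 0.429% of all genes, and in stimulated cells none was called. The part of this sum in the results below was not tested.

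Control replicate 2 stood apart within its groups. It was the lowest of its group for 21 of 28 G1/S genes in stimulated and 19 in unstimulated control cells. In *Adam17*-KD cells replicate 2 was the lowest for 12 genes with cytokines, where replicate 3 was the lowest for 13, and for 14 without cytokines. *Malat1*, a long noncoding RNA kept in the nucleus, had 1500 and 1279 CPM in the stimulated and unstimulated replicate 2 libraries of control cells and 261 to 609 CPM in the other 4 control libraries. *Adam17*-KD replicate 2 had 932 and 1185 CPM with and without cytokines, and the highest other *Adam17*-KD library had 1233 CPM. What set the control replicate 2 libraries apart was not tested. Values without control replicate 2, or without replicate 2 of all groups, are given below where they end a call.

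**Figure D2:**
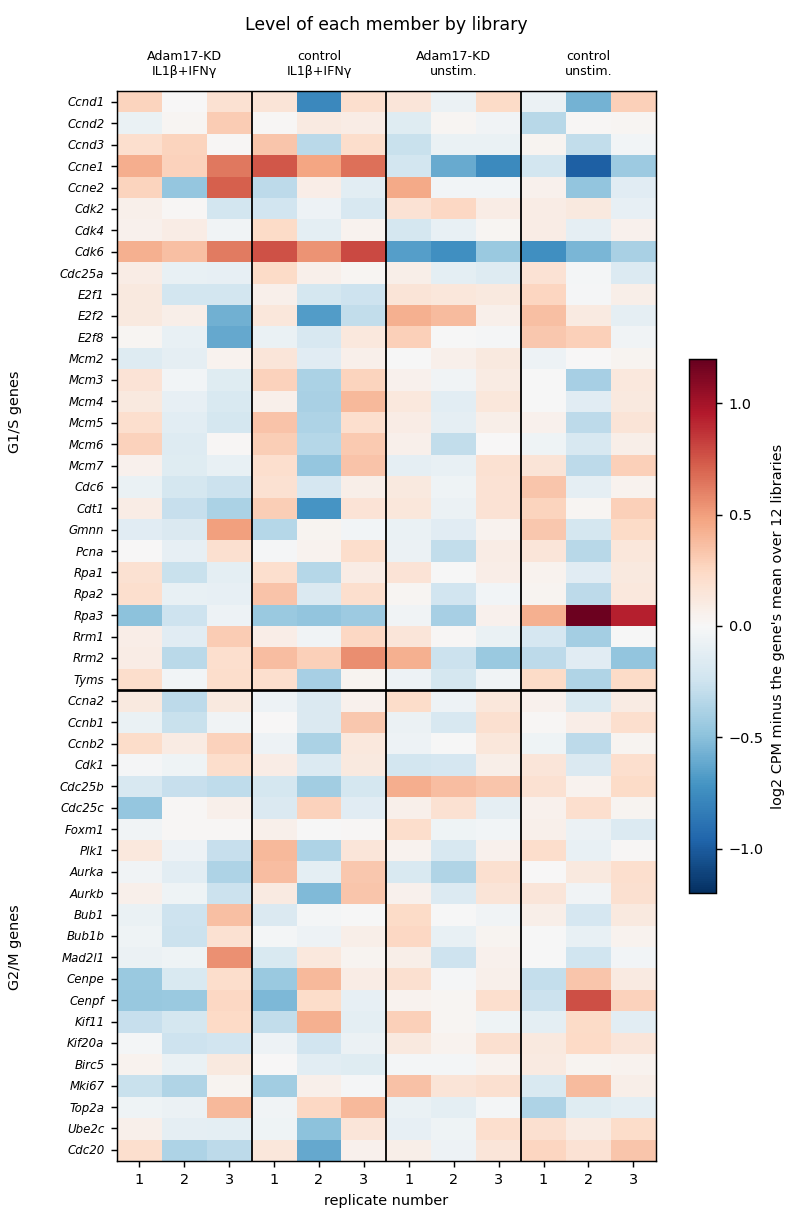
Level of the 50 members in the 12 libraries, as log2 CPM minus the gene's mean over all libraries (colour, blue low and red high), with G1/S genes above the line and G2/M genes below it. *Cdk6* and *Ccne1* are high in the 6 stimulated libraries, *Rpa3* is high in the unstimulated control libraries only, and many replication genes are low in control replicate 2.

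The first question was which G1/S and G2/M genes set *Adam17*-KD apart from control cells. In unstimulated cells 1 of 50 members was called at an adjusted p under 0.05, *Rpa3*, which was lower. That was a share of 2%, beside 0.470% of all genes tested (0.0409% lower). With the replicate number as a block, 130 genes were called instead of 69, and of the members again *Rpa3*. In stimulated cells no member was called by edgeR, DESeq2 or limma-voom, beside 0.0341% of all genes, and 1 member had an unadjusted p under 0.05, beside 4.61%. Averaged over both conditions no member was called by any of the 3 tools either, beside 1.24% of all genes, and 2 had an unadjusted p under 0.05, beside 10.8%.

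Over both conditions the 95% interval of the fold change lay within 2-fold for all 50 members (88.4% of all genes tested), and within 1.5-fold for 48, all but *Ccne2* and *Rpa3*. The median log2 difference was -0.03 for the 28 G1/S genes and -0.03 for the 22 G2/M genes, beside -0.01 for all genes tested. In unstimulated cells these medians were -0.01, -0.02 and -0.01, and in stimulated cells -0.06, -0.04 and 0.01. Summed over the G1/S genes, stimulated *Adam17*-KD cells had 4952 ± 318 CPM and stimulated control cells 5135 ± 829 CPM (SD, n = 3 each), and unstimulated *Adam17*-KD cells had 4868 ± 276 CPM and unstimulated control cells 4764 ± 485 CPM (SD, n = 3 each). For the G2/M genes the sums were 3014 ± 253 CPM in stimulated *Adam17*-KD cells, 3141 ± 233 CPM in stimulated control cells, 3135 ± 178 CPM in unstimulated *Adam17*-KD cells and 3120 ± 103 CPM in unstimulated control cells (SD, n = 3 each). The groups differed by less than the spread between replicates in these sums.

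Among the 9 G1 cyclins, kinases and their activator *Cdc25a*, the average knockdown differences ran from -0.14 to 0.34 on the log2 scale. The upper end was *Ccne2*, the second cyclin E gene and the lowest member in counts, at 0.34 (95% interval -0.06 to 0.74, adjusted p = 0.577). *Cdk6*, the D-cyclin kinase, was at -0.14 (-0.35 to 0.06, adjusted p = 0.665). None of the 3 E2F factors was called. *E2f8*, a repressor of E2F targets in S phase, was at -0.13 (adjusted p = 0.795), and *E2f2*, an activator, was at 0.16 (adjusted p = 0.810). None of the origin licensing genes was called: the 6 *Mcm* helicase subunits, *Cdc6*, *Cdt1* and *Gmnn*, the inhibitor of *Cdt1*, ran from -0.13 to 0.01, with *Cdt1*, the loader of the helicase, at -0.13 (adjusted p = 0.821) and *Cdc6*, its partner, at -0.11 (adjusted p = 0.779). *Rrm1*, the large subunit of ribonucleotide reductase, was at 0.11 (adjusted p = 0.791).

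The G2/M genes ranged from -0.29 to 0.21. *Aurka*, the kinase of centrosomes and spindle poles, lay at the lower end with -0.29 (95% interval -0.54 to -0.05, unadjusted p = 0.0237, adjusted p = 0.350), and *Ccnb2*, a B-type cyclin, at the upper end with 0.21 (-0.01 to 0.42, adjusted p = 0.482). *Cdc25b*, the phosphatase that starts activation of CDK1, was at 0.12 (adjusted p = 0.606). *Mad2l1*, of the spindle checkpoint, was at 0.11 (adjusted p = 0.814), with a sign that turned without 1 library. Of the mitotic exit genes, *Cdc20*, an activator of the anaphase-promoting complex, was at -0.12 (adjusted p = 0.823), and *Ube2c*, a ubiquitin-conjugating enzyme of that complex, was at -0.05 (adjusted p = 0.914), a sign that also turned without 1 library.

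In separate conditions, few members had groups that did not overlap. In unstimulated cells these were *Rpa3* and *Cdc20*, below control in all 3 *Adam17*-KD libraries, and *Cdc25b*, above control in all 3, that is 3 of 50 members (6%) beside 15.9% of all genes. In stimulated cells it was *Rrm2*, below control in all 3 *Adam17*-KD libraries, 1 of 50 (2%) beside 8.06% of all genes.

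**Figure D3:**
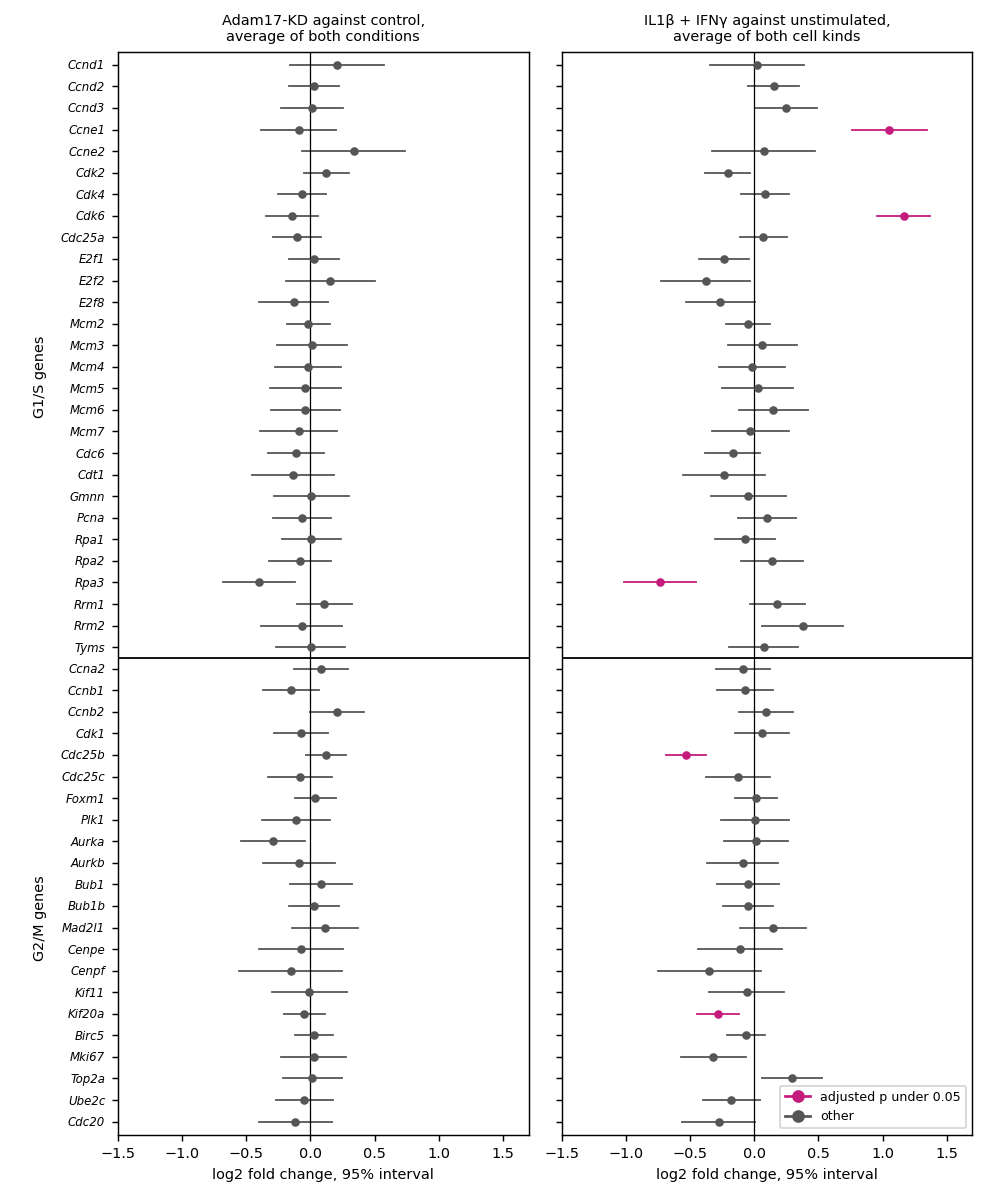
Fold change of each member on the log2 scale with its 95% interval (edgeR quasi-likelihood fit), for *Adam17*-KD against control averaged over both conditions (left) and for IL1β plus IFNγ against unstimulated averaged over both kinds of cells (right). No member is called on the left, and 5 are called on the right: *Cdk6* and *Ccne1* higher, *Rpa3*, *Cdc25b* and *Kif20a* lower.

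*Rpa3*, on chromosome 6 (8255936 to 8259173, minus strand), encodes the smallest of the 3 subunits of replication protein A, which coats single-stranded DNA at the fork. Unstimulated *Adam17*-KD libraries had 36.7, 28.7 and 39.2 CPM, against 50.8, 85.1 and 72.0 CPM in unstimulated control libraries. With cytokines the levels were 26.9, 31.8 and 36.3 CPM in *Adam17*-KD cells, against 27.7, 27.2 and 28.0 CPM in control cells. The unstimulated control libraries were thus the high ones, above all 9 others, and spread widely among themselves. *Rpa3* fell by 0.99 ± 0.18 on the log2 scale in unstimulated *Adam17*-KD cells (fold 0.504, adjusted p = 0.0310, edgeR). In stimulated cells the difference was 0.19 (adjusted p = 1.00), and averaged over conditions it was -0.40 (95% interval -0.68 to -0.12, adjusted p = 0.229). The unstimulated call was lost when any of 7 of the 12 libraries was left out in turn (adjusted p up to 0.260), without control replicate 2 of both conditions (-0.80, adjusted p = 0.110) and without replicate 2 of all groups (-0.68, adjusted p = 0.671). The genes of the other 2 subunits were not called, in unstimulated cells or on average. Without cytokines *Rpa2* had 82.4, 69.4 and 79.4 CPM in *Adam17*-KD libraries, against 82.9, 65.2 and 88.8 CPM in control libraries. *Rpa1*, the large subunit, had 173.0, 154.0 and 162.8 CPM, against 159.3, 140.6 and 167.0 CPM. On average *Rpa2* was at -0.08 (adjusted p = 0.854) and *Rpa1* at 0.01 (adjusted p = 0.988).

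The second question was how the same genes responded to IL1β and IFNγ. In control cells 4 members were called, *Cdk6* and *Ccne1* higher and *Rpa3* and *Cdc25b* lower, 8% of the set beside 6.81% of all genes (5.75% higher and 1.06% lower). In *Adam17*-KD cells 3 were called, *Cdk6* and *Ccne1* higher and *Cdc25b* lower, 6% beside 7.90% (6.37% higher and 1.53% lower). Averaged over both kinds of cells 5 were called, those 4 and *Kif20a*, 10% beside 13.0%. The members were thus called about as often as other genes, and 45 of 50 were not called in the average. By direction, 2 members (4%) rose, beside 9.19% of all genes, and 3 (6%) fell, beside 3.82%.

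Both called increases lay in the 9 G1 cyclins and kinases. *Cdk6* encodes a kinase partner of the D-type cyclins and spans 3341485 to 3531008 on the plus strand of chromosome 5, where 2 predicted genes (*Gm17590* and *Gm42435*) overlap it. Stimulated *Adam17*-KD libraries had 55.9, 53.6 and 64.0 CPM, against 26.4, 25.0 and 30.5 CPM in unstimulated *Adam17*-KD libraries. In control cells the levels were 70.6, 60.7 and 72.1 CPM with cytokines, against 25.1, 28.4 and 31.9 CPM without. All 6 stimulated libraries were above all 6 unstimulated ones. *Cdk6* rose 2.11-fold in *Adam17*-KD cells (log2 1.08 ± 0.14 SE, adjusted p = 8.74e-05) and 2.38-fold in control cells (1.25 ± 0.14, adjusted p = 1.92e-05, edgeR). The average was 1.17 (95% interval 0.96 to 1.37, adjusted p = 6.40e-07).

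*Ccne1*, which encodes cyclin E1, the partner of CDK2 at the G1/S transition, lies on the minus strand of chromosome 7 (38097984 to 38107534). Its levels were 43.7, 38.9 and 49.8 CPM in stimulated and 27.6, 21.2 and 18.9 CPM in unstimulated *Adam17*-KD libraries. Control libraries had 54.0, 44.8 and 50.7 CPM with cytokines, against 27.6, 16.3 and 23.9 CPM without. Again the stimulated and unstimulated libraries did not overlap. *Ccne1* rose by 0.97 ± 0.19 (adjusted p = 0.00489) on the log2 scale in *Adam17*-KD cells and by 1.14 ± 0.19 (adjusted p = 0.00135) in control cells, 2.08-fold on average (adjusted p = 7.14e-05, edgeR). Both genes kept their calls when each of the 12 libraries was left out in turn, and their promoter windows above held none of the searched words. The *Cdk6* window begins at 3343643, inside the gene span given above, and does not cover the start of that span at 3341485.

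The other 7 genes of this group were not called. In the average, the group ran from -0.21 to 1.17, with 8 of 9 values above 0 and a median of 0.08. Its lowest value was *Cdk2*, the kinase partner of cyclin E, at -0.21 (95% interval -0.38 to -0.03, adjusted p = 0.132). *Ccnd3*, a D-type cyclin, was at 0.25 (0.01 to 0.49, adjusted p = 0.202) and was called without control replicate 2 of both conditions (adjusted p = 0.0360).

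The 3 E2F factors had values below 0 in both kinds of cells. *E2f1*, the activator best known for S phase entry, had 91.3, 72.3 and 72.3 CPM in stimulated and 93.6, 92.2 and 91.5 CPM in unstimulated *Adam17*-KD libraries. Control libraries had 87.8, 72.7 and 70.7 CPM with cytokines, against 100.8, 83.5 and 88.2 CPM without. The average difference was -0.23 (95% interval -0.43 to -0.04, adjusted p = 0.124), and it was called only with the replicate number as a block (-0.24, adjusted p = 0.0310). *E2f2* was at -0.38 (-0.72 to -0.03, adjusted p = 0.169).

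None of the 9 genes of origin licensing was called. They ran from -0.24 to 0.15 with a median of -0.03, and all 9 intervals lay within 1.5-fold. The extremes were *Cdt1* at -0.24 (adjusted p = 0.388) and *Mcm6* at 0.15 (adjusted p = 0.537), a helicase subunit whose promoter has the 5 E2F matches shown above. *Mcm6* averaged 336 ± 52 CPM in stimulated *Adam17*-KD cells, 351 ± 83 CPM in stimulated control cells, 308 ± 39 CPM in unstimulated *Adam17*-KD cells and 312 ± 28 CPM in unstimulated control cells (SD, n = 3 each), groups that overlapped. *Cdc6* was at -0.17 (adjusted p = 0.355).

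Of the 7 fork and nucleotide genes, *Rpa3* was called. It fell by 1.33 ± 0.19 on the log2 scale in control cells (fold 0.399, adjusted p = 0.000239, edgeR), with a difference of -0.14 (adjusted p = 0.792) in *Adam17*-KD cells and an average of -0.73 ± 0.13 (adjusted p = 0.00124). This response in control cells and the knockdown difference in unstimulated cells share the same 3 unstimulated control libraries, which were the high ones, so neither is independent of the other. *Rrm2*, the small and rate-limiting subunit of ribonucleotide reductase, had 387.1, 290.3 and 418.7 CPM in stimulated and 488.8, 304.0 and 267.4 CPM in unstimulated *Adam17*-KD libraries. Control libraries had 468.5, 441.3 and 535.4 CPM with cytokines, against 292.1, 330.5 and 262.3 CPM without. Stimulated control libraries were above unstimulated ones without overlap, whereas the *Adam17*-KD libraries overlapped. In control cells the difference of *Rrm2* was 0.71 (95% interval 0.26 to 1.15, adjusted p = 0.0607), and it was called by DESeq2 (adjusted p = 0.0173), without the filter on low counts (adjusted p = 0.000233), with only the compared groups in the fit (adjusted p = 0.0187) and without unstimulated *Adam17*-KD replicate 1 or 3 or stimulated control replicate 2 (adjusted p down to 0.00861). In *Adam17*-KD cells it was 0.05 (adjusted p = 0.949), and 0.34 (adjusted p = 0.441) without unstimulated *Adam17*-KD replicate 1, the highest of its group at 488.8 CPM. Without that library the average over both kinds of cells was called (0.54, adjusted p = 0.00744), against 0.38 (adjusted p = 0.121) with it, and it was called without the filter on low counts as well (0.37, adjusted p = 0.0117). *Rrm2* in its separate contrasts and *Rpa3* in its uncalled contrasts were singled out after their values were seen.

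Among the 8 mitotic entry genes, *Cdc25b* fell in both kinds of cells. The gene lies on chromosome 2 (131186949 to 131198497, plus strand), where it overlaps *Spef1*, and reads of the pair cannot be told apart with certainty because strand in counting is not given in the sources used here. Stimulated *Adam17*-KD libraries had 106.7, 100.9 and 99.0 CPM, against 164.9, 157.9 and 153.8 CPM in unstimulated *Adam17*-KD libraries. Control libraries had 105.1, 91.5 and 105.5 CPM with cytokines, against 137.9, 125.8 and 143.4 CPM without. The stimulated libraries were below the unstimulated ones in both kinds of cells and lay close together. *Cdc25b* fell by 0.64 ± 0.10 (adjusted p = 0.000826) on the log2 scale in *Adam17*-KD cells and by 0.43 ± 0.10 (adjusted p = 0.0179) in control cells, and to 0.691 of the unstimulated level on average (adjusted p = 0.000109, edgeR). The call in control cells was lost without unstimulated control replicate 1 or 3 or stimulated control replicate 2 (adjusted p up to 0.0943) and without replicate 2 of all groups (adjusted p = 0.102), without the filter on low counts (adjusted p = 0.113) and with only the compared groups in the fit (adjusted p = 0.130), whereas that in *Adam17*-KD cells was kept without any 1 library. The remaining mitotic entry genes were not called, among them *Cdc25c*, a phosphatase of the same family, at -0.13 (adjusted p = 0.572).

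In the group of 10 spindle, kinetochore and checkpoint genes, *Kif20a* was called in the average. It encodes a kinesin of the central spindle, needed for cytokinesis. The gene overlaps *Cdc23*, and as for *Cdc25b*, reads of the pair cannot be told apart with certainty. Its levels were 144.7, 123.6 and 125.2 CPM in stimulated and 159.5, 150.8 and 167.5 CPM in unstimulated *Adam17*-KD libraries. Control libraries had 141.0, 124.8 and 140.1 CPM with cytokines, against 158.8, 173.1 and 162.8 CPM without. Each kind of cells was lower with cytokines in all 3 libraries, by a small margin. *Kif20a* fell to 0.822 of the unstimulated level on average (log2 -0.28 ± 0.07, adjusted p = 0.0215, edgeR), with differences of -0.29 (adjusted p = 0.171) in control cells and -0.28 (adjusted p = 0.165) in *Adam17*-KD cells, where DESeq2 called it (-0.30, adjusted p = 0.0414). The call in the average was lost when 1 of 4 libraries was left out (unstimulated *Adam17*-KD replicate 3, stimulated *Adam17*-KD replicate 2 or 3, unstimulated control replicate 2, adjusted p up to 0.0603), without control replicate 2 of both conditions (adjusted p = 0.0558), without replicate 2 of all groups (adjusted p = 0.137) and without the filter on low counts (adjusted p = 0.0976). *Cenpf*, a kinetochore protein, was at -0.35 (adjusted p = 0.293).

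**Figure D4:**
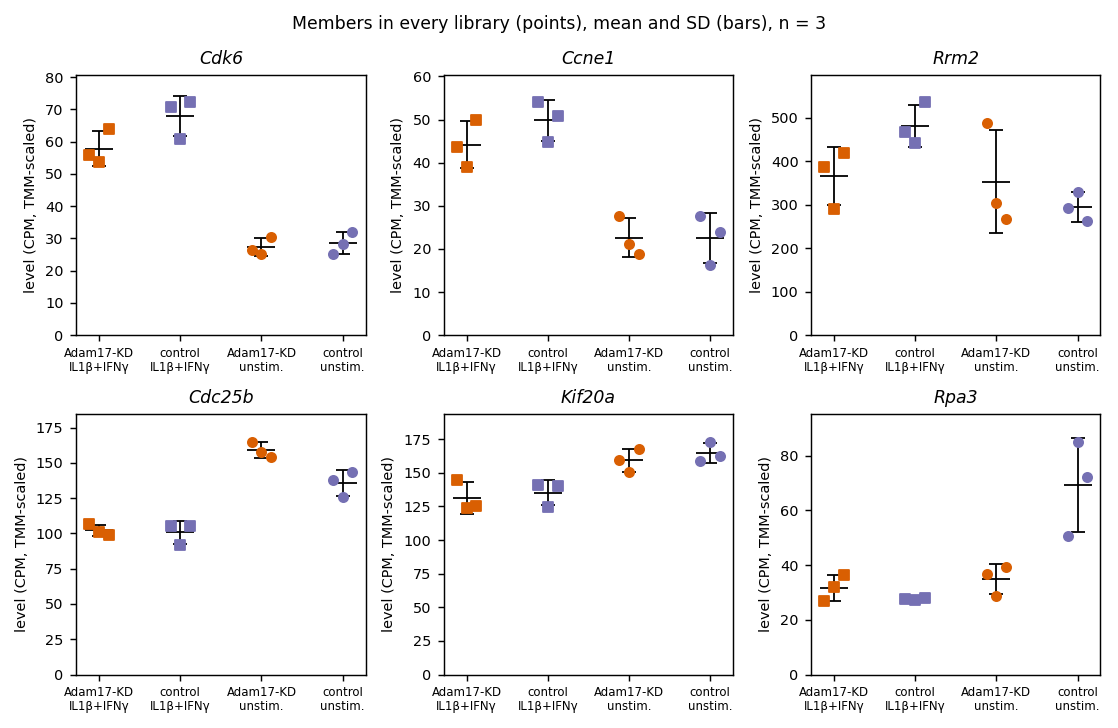
Level in CPM of 6 members in each of the 12 libraries (points), with mean and SD (bars, n = 3), for stimulated *Adam17*-KD, stimulated control, unstimulated *Adam17*-KD and unstimulated control cells; each axis starts at 0. *Cdk6* and *Ccne1* are higher and *Cdc25b* is lower in both stimulated groups, and *Rpa3* is high in unstimulated control cells alone.

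The 4 genes of chromosome structure and mitotic exit did not move together. *Mki67*, which encodes the proliferation antigen Ki-67, had 147.4, 138.8 and 182.1 CPM in stimulated and 227.0, 198.1 and 203.3 CPM in unstimulated *Adam17*-KD libraries, which did not overlap. In control libraries it had 133.3, 186.0 and 175.6 CPM with cytokines, against 156.5, 230.9 and 186.8 CPM without, which overlapped. The average difference was -0.32 (95% interval -0.57 to -0.07, adjusted p = 0.101), which was called without the filter on low counts (adjusted p = 0.0407). *Top2a*, the DNA topoisomerase that untangles sister chromatids, had 615.6, 607.6 and 836.7 CPM in stimulated and 606.4, 588.3 and 628.7 CPM in unstimulated *Adam17*-KD libraries. Control libraries had 620.1, 757.1 and 836.4 CPM with cytokines, against 493.6, 578.8 and 590.3 CPM without, again without overlap in 1 kind of cells only. Its average difference was 0.29 (0.06 to 0.53, adjusted p = 0.1002), and with the replicate number as a block it was called (0.28, adjusted p = 0.0399). These are both G2/M genes with CHR words in their promoters, and their values had opposite signs.

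As groups, the G1/S genes had a median log2 response of 0.05 and the G2/M genes one of -0.07 in the average, beside -0.02 for all genes tested. In control cells the medians were 0.05 and -0.05, beside -0.03, and in *Adam17*-KD cells 0.04 and -0.10, beside 0.00. Of the 22 G2/M genes 7 had a value above 0 in the average, and of the 28 G1/S genes 16 did. The median over the genes of a library spread by 0.140 (G1/S) and 0.0869 (G2/M) on the log2 scale within groups (SD). Between libraries of the same number, stimulated minus unstimulated, the G2/M median differed by -0.11, -0.10 and -0.01 in *Adam17*-KD cells and by -0.11, -0.16 and -0.05 in control cells, below 0 in all 6. The G1/S median differed by 0.04, -0.01 and -0.10 in *Adam17*-KD cells and by 0.13, -0.03 and 0.08 in control cells, with both signs in each. Over all genes, libraries of the same number deviated together in control cells (r = 0.133 to 0.487), whereas r had both signs in *Adam17*-KD cells (-0.171 to 0.301). Without regard to number, the G2/M medians of stimulated and unstimulated libraries overlapped in both kinds of cells. As deviations from each gene's mean, the highest stimulated median was 0.0496 in control cells and 0.0888 in *Adam17*-KD cells. The lowest unstimulated median was 0.0398 in control cells and -0.0534 in *Adam17*-KD cells. Groups that did not overlap were found for 9 of 50 members in control cells (18%, beside 19.3% of all genes) and for 10 in *Adam17*-KD cells (20%, beside 24.4%).

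The third question was whether the response differed between *Adam17*-KD and control cells. No member was called by edgeR, DESeq2 or limma-voom, and none of the 14673 genes was called by edgeR (222 genes, 1.51%, and 2 members had an unadjusted p under 0.05; DESeq2 called 5 genes). The 2 members were *Rpa3*, with a response that was 1.18 ± 0.26 higher on the log2 scale in *Adam17*-KD cells (95% interval 0.62 to 1.74, unadjusted p = 0.000517, adjusted p = 1.00), and *Rrm2*, with a response 0.66 lower (95% interval -1.29 to -0.03, unadjusted p = 0.0409, adjusted p = 1.00). The *Rrm2* difference was -0.40 without unstimulated *Adam17*-KD replicate 1, and -0.88 to -0.52 without any other library. Without the filter on low counts, *Rpa3* was called (adjusted p = 0.00384). For the other 48 members the interval of this difference lay within 2-fold (64.8% of all genes), and the interaction medians were -0.05 for G1/S and -0.06 for G2/M genes, beside 0.02 for all genes tested. An equal response was not shown by this: 20 of the 50 intervals lay within 1.5-fold.

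The rest of the pathway was read from 5 lists with 103 further genes, of which 101 were tested: CDK inhibitors, pocket proteins with further E2F and DREAM genes, the origin complex and CMG helicase, DNA polymerases with clamp loader and ligation, and further mitotic genes. None of the 101 was called between *Adam17*-KD and control cells in either condition or in the average, or for a difference in response, by edgeR or limma-voom, beside 0.470%, 0.0341%, 1.24% and 0% of all genes by edgeR. The shares of the 101 with an unadjusted p under 0.05 were close to those of all genes, and somewhat lower in each contrast. There were 5 (4.95%) in unstimulated cells and 3 (2.97%) in stimulated cells, beside 7.56% and 4.61% of all genes. The average had 8 (7.92%) and the difference in response had 1 (0.99%), beside 10.8% and 1.51% of all genes. The average is the mean of both conditions, so these contrasts are not independent. DESeq2 called 1 in unstimulated cells and 1 in the average, both times *Myc*. The DESeq2 calls over all genes are counted in the last section. *Myc*, a transcription factor that drives growth and G1 entry, was the nearest at -0.34 ± 0.08 on average (adjusted p = 0.0827), where DESeq2 called it (adjusted p = 0.00694), as did edgeR without stimulated control replicate 2 (adjusted p = 0.0234). Its levels were 243.3, 249.0 and 210.4 CPM in stimulated *Adam17*-KD libraries against 283.8, 234.5 and 298.8 CPM in stimulated control libraries, and 211.9, 206.2 and 225.0 CPM in unstimulated *Adam17*-KD libraries against 317.5, 289.9 and 279.0 CPM in unstimulated control libraries. The unstimulated groups did not overlap, and the stimulated ones did.

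With cytokines, 7 of the 101 rose and 6 fell in the average, 12.9% of them beside 13.0% of all genes. In the average they were thus called about as often as other genes. By direction 6.93% rose, beside 9.19% of all genes, and 5.94% fell, beside 3.82%. In separate cells the shares called were smaller than those of all genes. They were 1.98% in control cells, beside 6.81%, and 4.95% in *Adam17*-KD cells, beside 7.90%. *Rbl1*, which encodes the pocket protein p107 of the DREAM complex, had the lowest adjusted p of the 101. Stimulated *Adam17*-KD libraries had 119.0, 120.3 and 141.8 CPM, against 73.0, 65.2 and 68.8 CPM in unstimulated *Adam17*-KD libraries. Control libraries had 103.3, 123.0 and 134.8 CPM with cytokines, against 59.6, 55.5 and 60.7 CPM without. All stimulated libraries were above all unstimulated ones, and *Rbl1* rose by 0.88 ± 0.12 in *Adam17*-KD cells (adjusted p = 0.000224) and by 1.04 ± 0.12 in control cells (adjusted p = 4.51e-05) on the log2 scale. It is annotated on the minus strand of chromosome 2 (157145893 to 157204534), where *Gm14277* overlaps it.

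*Cdkn1a*, which encodes the CDK inhibitor p21, had 85.0, 77.3 and 84.1 CPM in stimulated and 47.7, 55.5 and 62.7 CPM in unstimulated *Adam17*-KD libraries. Control libraries had 100.4, 80.2 and 101.1 CPM with cytokines, against 69.2, 75.3 and 73.8 CPM without. It was above the unstimulated libraries in both kinds of cells, and rose by 0.57 ± 0.13 in *Adam17*-KD cells (adjusted p = 0.0113) and by 0.47 ± 0.09 on average (adjusted p = 0.00241), with 0.37 (adjusted p = 0.133) in control cells. The call in *Adam17*-KD cells alone was lost without unstimulated *Adam17*-KD replicate 1 or 2 (adjusted p up to 0.0744). Unstimulated *Adam17*-KD libraries lay below unstimulated control libraries without overlap, as they did for 7.53% of all genes. That knockdown difference of *Cdkn1a* was -0.39 (adjusted p = 0.345, edgeR), and -0.29 averaged over both conditions (adjusted p = 0.182), neither of them called. *Cdkn2b*, the inhibitor p15 of CDK4 and CDK6, fell by 0.46 ± 0.14 on average (adjusted p = 0.0464) and was not called by limma-voom (adjusted p = 0.0655).

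Replication genes with called increases were *Rfc3* of the clamp loader (0.66 ± 0.14, adjusted p = 0.00407), *Orc1* of the origin recognition complex (0.54 ± 0.13, adjusted p = 0.0119), the DNA polymerase δ subunit *Pold3* (0.38 ± 0.10, adjusted p = 0.0165) and the DNA polymerase ε subunit *Pole4* (0.36 ± 0.11, adjusted p = 0.0361), all in the average. *Dbf4*, the activator of the origin-firing kinase CDC7, fell by 0.31 ± 0.08 (adjusted p = 0.0192), and *Tfdp2*, a dimer partner of E2F, fell by 0.42 ± 0.13 (adjusted p = 0.0466). Of the mitotic genes, *Anln*, which encodes the cytokinesis scaffold anillin, fell by 0.52 ± 0.09 (adjusted p = 0.000631), *Ccnf*, which encodes cyclin F, fell by 0.36 ± 0.09 (adjusted p = 0.0137), and *Racgap1* of the central spindle fell by 0.25 ± 0.07 (adjusted p = 0.0328). *Mad1l1* of the spindle checkpoint rose by 0.35 ± 0.08 (adjusted p = 0.00865). *Rbl1*, *Cdkn1a*, *Rfc3*, *Orc1*, *Mad1l1*, *Anln* and *Ccnf* kept their calls in the average when each library was left out in turn. Of these 12 fits, only 3 kept the call of *Cdkn2b*, of *Tfdp2*, of *Pole4* and of *Racgap1* (adjusted p up to 0.148, edgeR). The call of *Dbf4* was kept in 6 of them and that of *Pold3* in 11. *Tfdp2* was not called by limma-voom either. The calls of *Cdkn2b*, *Tfdp2*, *Dbf4*, *Pold3*, *Pole4* and *Racgap1* were each lost without replicate 2 of all groups (adjusted p from 0.0553 to 0.205). The median over the 101 genes was -0.08, beside -0.02 for all genes tested.

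**Figure D5:**
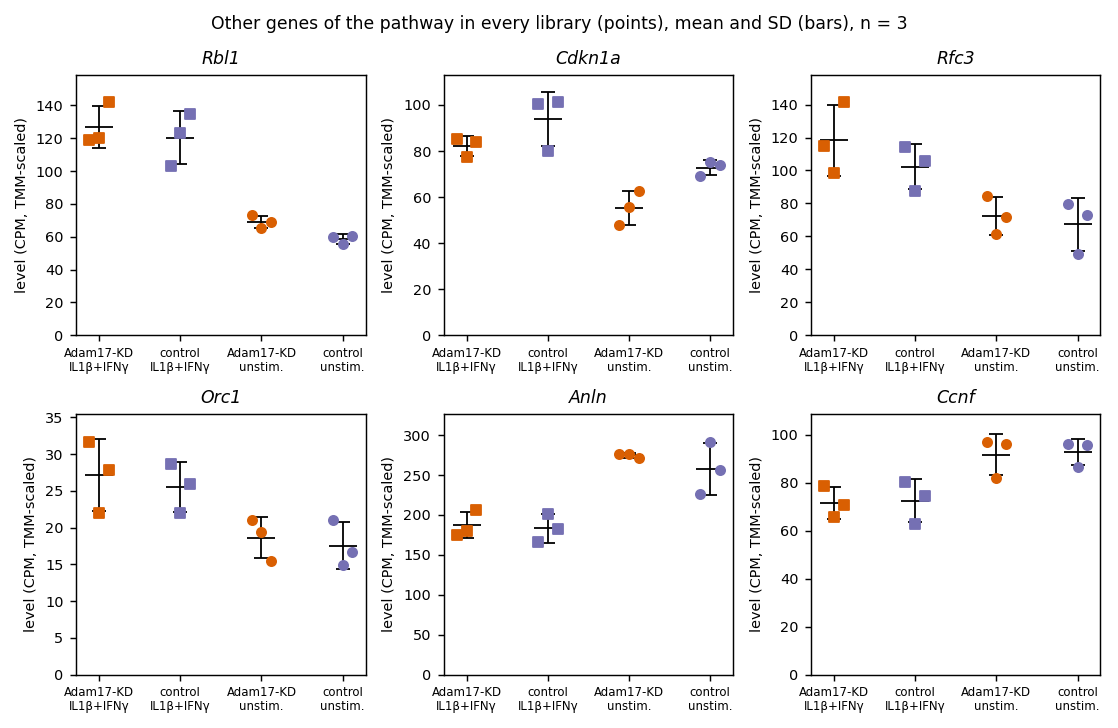
Level in CPM of 6 further pathway genes in each of the 12 libraries (points), with mean and SD (bars, n = 3), for stimulated *Adam17*-KD, stimulated control, unstimulated *Adam17*-KD and unstimulated control cells; each axis starts at 0. *Rbl1* and *Cdkn1a* are higher and *Anln* is lower in the stimulated groups of both kinds of cells.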

How the data were processed

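Levels of mRNA were measured in 12 libraries of poly(A)+ RNA made with an Ion Total RNA-Seq kit. The authors deposited whole-number read counts per gene, not normalised; the labels give build mm10, and the aligner, annotation, strand and handling of multiply mapped reads are not given in the sources used here. A line repeating the sample names and 2 lines with a date in place of a gene name (0.00808% of counts) were left out. Sheets with the authors' own comparisons of control with *Adam17*-KD cells (mean counts, log2 fold changes, p-values) were not used.

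The test was run in edgeR 4.0.16 under R 4.3.3: filterByExpr, TMM scaling and a quasi-likelihood model with 1 mean per group over all 12 libraries (8 residual degrees of freedom). Benjamini-Hochberg adjustment ran over 14673 genes, and genes were called at an adjusted p under 0.05. SE was the log2 fold change over the root of F. CPM are on the TMM scale. The script was tested on simulated data.

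The members, gene lists and tests were chosen with earlier results of these data known. Named were all members called in any contrast, the 2 members of smallest p per role in the average knockdown and cytokine contrasts, and up to 4 genes per further list. Gene positions are from GENCODE vM21, which uses the same assembly as mm10. Same-numbered libraries deviated together in unstimulated cells (r = 0.221 to 0.457 across genes) and in control cells (0.133 to 0.487). In stimulated cells (-0.249 to 0.448) and in *Adam17*-KD cells (-0.171 to 0.301) r had both signs. Alternatives were DESeq2 1.42.0, limma-voom (limma 3.58.1), RLE scaling, no filter or a mean count of 50, the replicate block, fits of the compared groups alone, and each library left out.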

Additional observations from a re-analysis of the deposited data

How the results depend on the processing

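Each group had 3 libraries, and the lowest count of a member in a library was 137. Without any 1 library, members called numbered 0 to 1 for the knockdown in unstimulated cells, and the called genes overall 10 to 126 there, 0 to 6 in stimulated cells and 69 to 234 in the average. With only the compared groups in the fit, 0 members were called for the knockdown in unstimulated cells, and 3 genes in all were called in stimulated cells. Without the filter on low counts, genes called for the knockdown were 223 in unstimulated cells, 98 in stimulated cells and 406 in the average, and for the difference in response 18 genes and 1 member, *Rpa3*. DESeq2 called 230, 74, 443 and 5 genes in these 4 contrasts. The replicate block called 130, 11 and 302 genes for the knockdown without cytokines, with cytokines and on average, and beyond those members and contrasts named above (*E2f1* and *Top2a*) it changed no call of a member. In 2 alternatives chosen after seeing the data, leaving out control replicate 2 of both conditions or replicate 2 of all groups, 0 members were called for the knockdown in unstimulated cells. Without replicate 2 of all groups, 0 genes were called for the knockdown in unstimulated cells, 0 in stimulated cells and 30 in the average, where the G2/M median was 0.0667. The causes of these shifts were not tested. Leaving out 1 library, the G2/M median of the cytokine response in *Adam17*-KD cells was -0.202 to -0.0547 (lowest without unstimulated *Adam17*-KD replicate 2), and the medians of the difference in response were -0.213 to 0.000255 for G1/S genes (lowest without stimulated control replicate 2) and -0.166 to 0.0116 for G2/M genes (lowest without unstimulated *Adam17*-KD replicate 2). The response of *Rrm2* in *Adam17*-KD cells was -0.141 to 0.338, below 0 without unstimulated *Adam17*-KD replicate 3 (-0.141) or 2 (-0.0729) or stimulated *Adam17*-KD replicate 3 (-0.0609). The average knockdown difference changed sign for *Mad2l1* without stimulated *Adam17*-KD replicate 3 (-0.00417, with 0.166 the highest) and for *Ube2c* without stimulated control replicate 3 (0.0253, with -0.127 the lowest).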
